A study of Mus musculus with 38 samples.

Results

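The genes described here encode the enzymes that write, read and remove DNA methylation in mouse embryonic stem (ES) cells. They were chosen by name as Dnmt3a, Dnmt3b, Dnmt3l, Tet1, Tet2, Tet3, Uhrf1 and Tdg, provided that the deposited table held counts for them. Of these 8 genes, 6 had counts, out of 22408 genes with counts in a table of 55385 genes. Tet1 and Tet3 were listed at 0 in all 38 libraries, as was Dnmt1, which leaves their expression unknown here.

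Dnmt3a and Dnmt3b are the de novo DNA methyltransferases, which add methyl groups to unmethylated CpG sites, and Dnmt3l is their catalytically inactive cofactor. Uhrf1 binds hemimethylated DNA after replication and recruits the maintenance methyltransferase Dnmt1. Tet proteins oxidise methylcytosine, and the glycosylase Tdg excises the most oxidised forms, which base excision repair then replaces with unmodified cytosine. ES cells in serum and LIF are known for high levels of Dnmt3b and Dnmt3l, and mainly use the shorter Dnmt3a form, which starts from an internal promoter.

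Total RNA was sequenced, after a stranded preparation, from 129S6/SvEvTac ES cells cultured in serum with LIF on gelatin. In the first experimental batch (26 libraries), wild-type cells received 10 uM BRM014, an inhibitor of the SWI/SNF ATPases Brg1 and Brm, for 30 min, 1 h, 3 h, 6 h or 24 h, or the compound was washed out for 30 min or 1 h after 1 h of treatment and for 6 h or 24 h after 24 h of treatment. Further wild-type cells of that batch received 10 uM of an inactive analog for 1 h or 24 h, or the vehicle DMSO for 1 h or 24 h. In the second batch (12 libraries), 2 further ES cell lines and wild-type cells each received 10 uM BRM014 or DMSO for 24 h. The first is labelled Ino80ko, after the ATPase of the INO80 remodeller, and the other is labelled Snf2hko, after that of ISWI. Every group had 2 libraries in a batch, giving 17 groups and 19 combinations of group and batch. For washouts the BRM014 dose is not labelled. DMSO was not included at 30 min, 3 h or 6 h or with a wash, and clones are not named for either line. The labels' protocol calls the replicates biological without naming cultures or days, so the p-values reflect variation among these libraries, and some of it may be technical.

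Libraries held 19.3 to 23.1 M counts in the first batch (median 21.6 M) and 21.9 to 44.5 M counts in the second (median 41.3 M), where M stands for mega. The smallest count of any of the 6 genes in any library was 1048, for Tdg, where the counting error is 3.09% of the value. Of 10 ES cell markers 9 had counts, and their sum was 5603 to 8188 CPM (counts-per-million of the library) in all libraries, with Sox2 listed at 0. The Ino80 gene had 128 and 122 CPM in Ino80ko cells with DMSO, 130.0 and 125 CPM in Snf2hko cells with DMSO, and 174 and 175 CPM in wild-type cells with DMSO. Its level was therefore as low in the line labelled Snf2hko as in the line labelled Ino80ko. Smarca5, which encodes Snf2h, and Smarca4, which encodes Brg1, were listed at 0, so the Snf2hko label could not be checked.

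Promoter sequences are given for the 4 genes that were lower together after 6 h of BRM014, as 250 bases upstream of RefSeq transcript starts in GRCm38.p6, read on the gene's strand. Capitals mark each GC box, searched as GGGCGG on both strands with overlaps counted. The first Dnmt3a window lies at chr12:3806730-3806979 (plus strand) and the window before the internal Dnmt3a start at chr12:3891494-3891743 (plus strand). The Dnmt3b window lies at chr2:153649199-153649448 (plus strand), the window of the first Dnmt3l start at chr10:78042037-78042286 (plus strand) and the Tet2 window at chr3:133544391-133544640 (minus strand).
Dnmt3a, first start: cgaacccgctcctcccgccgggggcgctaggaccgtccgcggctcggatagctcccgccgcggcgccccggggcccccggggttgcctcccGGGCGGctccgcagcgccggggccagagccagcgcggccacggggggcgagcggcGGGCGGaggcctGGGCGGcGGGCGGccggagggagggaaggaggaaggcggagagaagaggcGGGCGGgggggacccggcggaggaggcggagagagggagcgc
Dnmt3a, internal start: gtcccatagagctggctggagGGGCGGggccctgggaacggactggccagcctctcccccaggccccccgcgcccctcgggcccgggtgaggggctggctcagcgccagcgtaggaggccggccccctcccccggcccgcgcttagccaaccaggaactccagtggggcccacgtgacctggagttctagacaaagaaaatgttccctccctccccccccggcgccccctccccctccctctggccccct
Dnmt3b: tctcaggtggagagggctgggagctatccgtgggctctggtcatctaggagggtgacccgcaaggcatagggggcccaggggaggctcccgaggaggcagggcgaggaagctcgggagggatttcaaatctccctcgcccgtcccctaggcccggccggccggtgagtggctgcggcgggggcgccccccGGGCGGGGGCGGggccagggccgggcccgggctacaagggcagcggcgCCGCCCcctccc
Dnmt3l: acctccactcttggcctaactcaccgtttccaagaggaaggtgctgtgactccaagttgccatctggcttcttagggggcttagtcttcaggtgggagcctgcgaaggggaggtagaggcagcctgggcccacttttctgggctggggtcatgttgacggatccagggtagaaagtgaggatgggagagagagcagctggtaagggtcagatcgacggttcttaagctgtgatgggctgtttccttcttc
Tet2: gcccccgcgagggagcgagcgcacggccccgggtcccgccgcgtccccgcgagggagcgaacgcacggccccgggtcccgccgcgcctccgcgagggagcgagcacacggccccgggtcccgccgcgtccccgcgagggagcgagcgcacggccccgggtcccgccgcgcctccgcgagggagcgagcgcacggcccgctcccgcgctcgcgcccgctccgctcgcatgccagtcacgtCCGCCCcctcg
These windows differ in composition. The Tet2 window holds 51 CpG sites and the first Dnmt3a window 38, against 21 for Dnmt3b and 15 for the internal Dnmt3a start. The first Dnmt3l window holds 5 (4 and 3 at its other starts), and the median of 32851 such windows is 6. GC boxes number 5 in the first Dnmt3a window, 3 in the Dnmt3b window and 1 each in the internal Dnmt3a and Tet2 windows, with no match in the printed Dnmt3l window. RefSeq gives 3 starts each for Dnmt3a and Dnmt3l, and of the Dnmt3l windows not printed the second start's holds 2 GC boxes and 1 E-box. Of all windows 32.7% hold a GC box. The internal Dnmt3a window also holds 1 E-box (CACGTG), which 6.02% of all windows hold. No window printed here holds TATAAA, which 12.4% of all windows hold. Counts are per gene, so the starts of Dnmt3a and of Dnmt3l are not separated in what follows. Which Dnmt3l start these cells used was not tested.

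In the GENCODE M21 annotation of GRCm38, Dnmt3a lies at chr12:3806007-3914443 (plus strand), Dnmt3b at chr2:153649450-153687730 (plus), Dnmt3l at chr10:78041947-78063622 (plus), Tet2 at chr3:133463679-133545139 (minus), Uhrf1 at chr17:56303321-56323486 (plus) and Tdg at chr10:82629828-82650799 (plus). None of these 6 overlaps another gene on its own strand. Tet1, Tet3 and Dnmt1 each do, but share no exon with those same-strand genes, which had 0 counts. Why Tet1, Tet3 and Dnmt1 are listed at 0 was not tested. On the opposite strand, exons of Dnmt3l overlap Aire (5 to 118 counts per library), exons of Tdg overlap Glt8d2 (0 to 23), exons of Tet2 overlap Gm42567 (0 to 7) and exons of Dnmt3a overlap Dnmt3aos (0 to 1). Whether counting used the strand is not given in the sources used here, and these partner counts are small beside those of the genes themselves.

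Per exonic length, the mean level of Uhrf1 was the highest of the 6 genes in 19 of 19 combinations of group and batch, and that of Dnmt3l exceeded that of Dnmt3b in 13 of 19. The level, as CPM per kilobase of exon (RPKM), was 129.9 to 215 for Uhrf1, 68.2 to 126 for Dnmt3b, 24.5 to 148 for Dnmt3l, 14.5 to 30.9 for Tet2, 9.27 to 14.5 for Tdg and 4.62 to 22.6 for Dnmt3a. As a ratio of highest to lowest level, Dnmt3l therefore covered the widest range, followed by Dnmt3a, and Tdg and Uhrf1 the narrowest. All other levels below are in CPM after scaling of library sizes, and each comparison is a log2 fold change ± standard error from edgeR's quasi-likelihood test, adjusted over all genes tested and called at an adjusted p under 0.05. All 6 genes passed the filter on low counts.

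After 24 h of BRM014, Dnmt3a fell by 54.0% relative to DMSO, while Dnmt3b and Tet2 were modestly higher. Dnmt3a had 143, 157, 126 and 128 CPM with BRM014 for 24 h, against 277, 305, 324 and 294 CPM with DMSO for 24 h (first batch, then second). Every BRM014 library lay below every DMSO library. Over both batches Dnmt3a fell by 1.12 ± 0.07 on the log2 scale (adjusted p = 2.57e-09). Within batches the change was -0.96 ± 0.06 in the first and -1.29 ± 0.08 in the second (adjusted p = 3.88e-14 and 1.14e-10).

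Dnmt3b had 610.3, 613, 642 and 633 CPM with BRM014 for 24 h, against 463, 469, 574 and 537 CPM with DMSO for 24 h. All 4 BRM014 libraries exceeded all 4 DMSO libraries, and the DMSO libraries of the second batch were higher than those of the first. Over both batches Dnmt3b rose by 0.30 ± 0.06 (adjusted p = 0.000465), with 0.39 ± 0.06 in the first batch and 0.20 ± 0.07 in the second (adjusted p = 1.05e-06 and 0.0221). The second-batch call was lost without BRM014 24 h replicate 3 (0.20, adjusted p = 0.0857) or without DMSO 24 h replicate 4 (0.15, adjusted p = 0.155).

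Tet2, which oxidises methylcytosine, had 402, 412, 365 and 346 CPM with BRM014 for 24 h, against 339.9, 402, 288 and 311 CPM with DMSO for 24 h. The groups did not overlap in either batch, though in the first the higher DMSO and the lower BRM014 library were both at 402 CPM after rounding. Tet2 rose by 0.19 ± 0.06 over both batches (adjusted p = 0.0195), with 0.13 ± 0.07 in the first batch (adjusted p = 0.154) and 0.25 ± 0.07 in the second (adjusted p = 0.00698). The call over both batches was lost without BRM014 24 h replicate 3 (0.17, adjusted p = 0.0773), without DMSO 24 h replicate 3 (0.15, adjusted p = 0.0864) and with no batch term (0.19, adjusted p = 0.139). In the first batch alone Tet2 was called without DMSO 24 h replicate 2 (0.25, adjusted p = 0.0112). In the second batch alone the call was lost without BRM014 24 h replicate 3 (0.22, adjusted p = 0.0616) or without DMSO 24 h replicate 3 (0.20, adjusted p = 0.0539).

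The cofactor Dnmt3l did not pass the test over both batches, with 298, 304, 311 and 300.0 CPM in BRM014 and 296, 320.3, 383 and 349.6 CPM in DMSO (-0.15 ± 0.06, adjusted p = 0.0641). It fell in the second batch by 0.26 ± 0.07 (adjusted p = 0.00319). Without DMSO 24 h replicate 1 it was called over both batches (-0.19, adjusted p = 0.016), and the second-batch call was lost without BRM014 24 h replicate 4 (-0.22, adjusted p = 0.0576) or DMSO 24 h replicate 3 (-0.19, adjusted p = 0.0653). Uhrf1 averaged 653 CPM in BRM014 and 701 CPM in DMSO over both batches (-0.10 ± 0.07, adjusted p = 0.252), and Tdg 63.9 and 66.4 CPM (-0.05 ± 0.07, adjusted p = 0.533). Uhrf1 fell in the second batch by 0.23 ± 0.09 (adjusted p = 0.035). That call was lost without BRM014 24 h replicate 3 (-0.23, adjusted p = 0.11), BRM014 24 h replicate 4 (-0.19, adjusted p = 0.183) or DMSO 24 h replicate 3 (-0.14, adjusted p = 0.29). In all, 3 of 6 genes were called over both batches, against 49.6% of all 11787 genes tested. In the first batch 2 of 6 were called (background 45.8%) and in the second 5 of 6 (background 42.3%). The difference between the batches in the effect of BRM014 was called for 0 of 6 (background 3.46%), with 2 of 6, Dnmt3a and Uhrf1, at an unadjusted p under 0.05, and DESeq2 called 0. Without DMSO 24 h replicate 2 the batch difference of Dnmt3a was called (-0.38, adjusted p = 0.039).

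**Figure D1:**
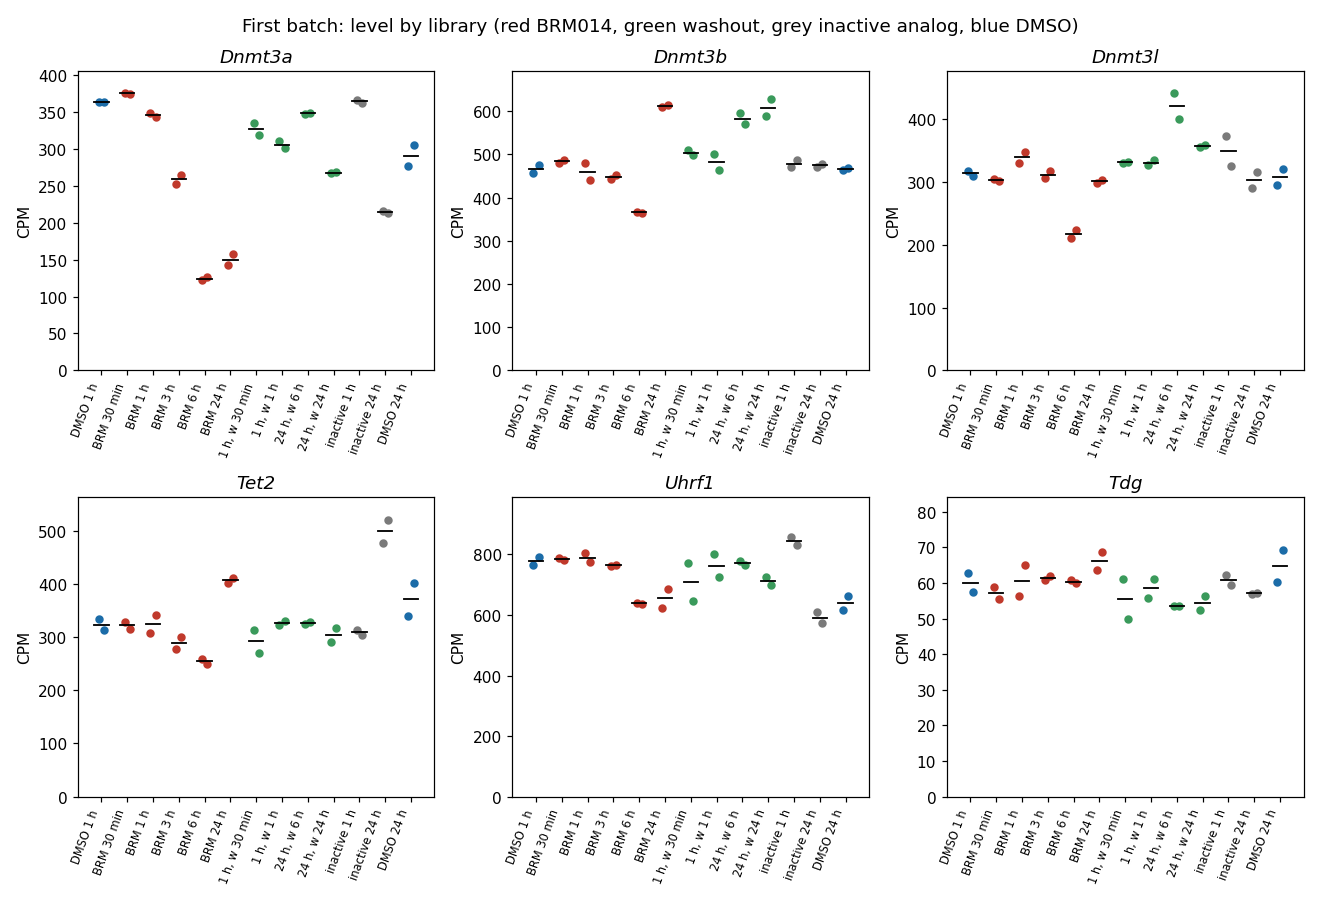
Level in CPM (vertical axis, from 0) of the 6 genes in each library of the first batch, with 2 points and a line at their mean for each group, in red for BRM014, green for washouts (w), grey for the inactive analog and blue for DMSO. Dnmt3a is at 122 and 126 CPM after 6 h of BRM014, against 364 CPM in both DMSO 1 h libraries, and Dnmt3b passes from its lowest levels at 6 h to 610.3 and 613 CPM at 24 h.

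Of the 6 genes, 4 were called lower after 6 h of BRM014, where they had their lowest levels of the first batch. At 30 min none of the 6 genes was called in edgeR's test, nor was any of the 12517 genes tested (background 0%, with 348 of all genes and 0 of the 6 at an unadjusted p under 0.05). At 1 h again 0 of 6 was called (background 0.599%, with 0 of 6 at an unadjusted p under 0.05). DESeq2 called 0 of 6 at both times. Dnmt3a had 376 and 375 CPM at 30 min and 349 and 344 CPM at 1 h of BRM014, against 364 CPM in both DMSO 1 h libraries.

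At 3 h, Dnmt3a had 252 and 265 CPM with BRM014, against 364, 364, 277 and 305 CPM in the DMSO libraries of 1 h and 24 h. All BRM014 libraries lay below all DMSO libraries, and Dnmt3a fell by 0.33 ± 0.05 against the mean of both DMSO groups (adjusted p = 6.65e-06). DMSO itself drifted: Dnmt3a was lower in DMSO 24 h than in DMSO 1 h by 0.33 ± 0.06 (adjusted p = 1e-04). The 3 h value was -0.50 against DMSO 1 h alone and -0.16 against DMSO 24 h alone (adjusted p = 1.3e-07 and 0.0248), so its size rests on the vehicle chosen. Tet2 fell by 0.26 ± 0.07 at 3 h (adjusted p = 0.00293), with 277 and 299.9 CPM in BRM014 against 334, 313, 339.9 and 402 CPM in the DMSO libraries. The Tet2 call was lost without BRM014 3 h replicate 1 (-0.21, adjusted p = 0.0874) and against DMSO 1 h alone (-0.17, adjusted p = 0.114). Uhrf1 was not called against both DMSO groups at 3 h (0.12 ± 0.06, adjusted p = 0.143) but was called against DMSO 24 h alone (0.26, adjusted p = 0.00369). These 2 of 6 calls compare with a background of 31.2%.

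At 6 h, Dnmt3a reached the lowest level of the first batch, 122 and 126 CPM, and fell by 1.37 ± 0.05 against the mean of both DMSO groups (adjusted p = 8.08e-18). Its absolute change exceeded that of 92.3% of the genes tested. Dnmt3l had 212 and 223 CPM with BRM014 for 6 h, against 318 and 310.4 CPM in DMSO 1 h and 296 and 320.3 CPM in DMSO 24 h, a fall of 0.49 ± 0.06 (adjusted p = 2.9e-08). Tet2 had 258 and 250.01 CPM with BRM014, below all 4 DMSO libraries, and fell by 0.42 ± 0.07 (adjusted p = 5.41e-06). Dnmt3b had 367 and 365 CPM with BRM014, against 456, 475, 463 and 469 CPM in the DMSO libraries, and fell by 0.33 ± 0.05 (adjusted p = 2.51e-06). For each of these 4 genes the 6 h libraries were the lowest of the first batch. The calls held against either DMSO group alone. Tdg was not called, with 60.9 and 59.9 CPM in BRM014 (-0.03 ± 0.08, adjusted p = 0.81). Uhrf1 had 641 and 635 CPM (-0.12 ± 0.06, adjusted p = 0.0913) and was called against DMSO 1 h alone (-0.27, adjusted p = 0.00217), or without DMSO 24 h replicate 1 (-0.15, adjusted p = 0.0471). In all 4 of 6 genes were called, all lower, against a background of 48.4% in both directions and 23.5% lower.

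Between 6 h and 24 h of BRM014 all 4 genes rose, but by different amounts. Dnmt3b rose by 0.71 ± 0.06 in 24 h over 6 h libraries (adjusted p = 2.82e-11), Tet2 by 0.65 ± 0.08 (adjusted p = 6.7e-08), Dnmt3l by 0.44 ± 0.06 (adjusted p = 2.77e-06) and Dnmt3a by 0.24 ± 0.06 (adjusted p = 0.00118). Dnmt3b and Tet2 thus moved to 24 h levels above both of their DMSO means, Dnmt3l to a level near its DMSO mean, and Dnmt3a stayed far below its own. The Dnmt3a rise was not called without BRM014 24 h replicate 2 (0.18, adjusted p = 0.0522). These 4 of 6 calls, all higher, compare with 41.6% of all genes in both directions and 19.5% higher. The same 6 h libraries gave the calls of lower levels, so the rises are not independent of them. The effect at 24 h, set against DMSO 24 h, differed from the effect at 1 h, set against DMSO 1 h, for Dnmt3a (-0.88 ± 0.08, adjusted p = 8.15e-10) and Dnmt3b (0.42 ± 0.08, adjusted p = 0.000129), 2 of 6 against a background of 31.6%.

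The DMSO drift touched 2 of the 6 genes (background 18.5%). Besides Dnmt3a, Uhrf1 was lower in DMSO 24 h, with 616 and 664 CPM, than in DMSO 1 h, with 766 and 792 CPM (-0.29 ± 0.07, adjusted p = 0.00308). Its call was lost when only the 4 DMSO libraries were fitted (-0.28, adjusted p = 0.0501). Tet2 averaged 371 CPM in DMSO 24 h and 323 CPM in DMSO 1 h (0.19 ± 0.08, adjusted p = 0.0808), and was called without DMSO 24 h replicate 1 (0.30, adjusted p = 0.0066).

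**Figure D2:**
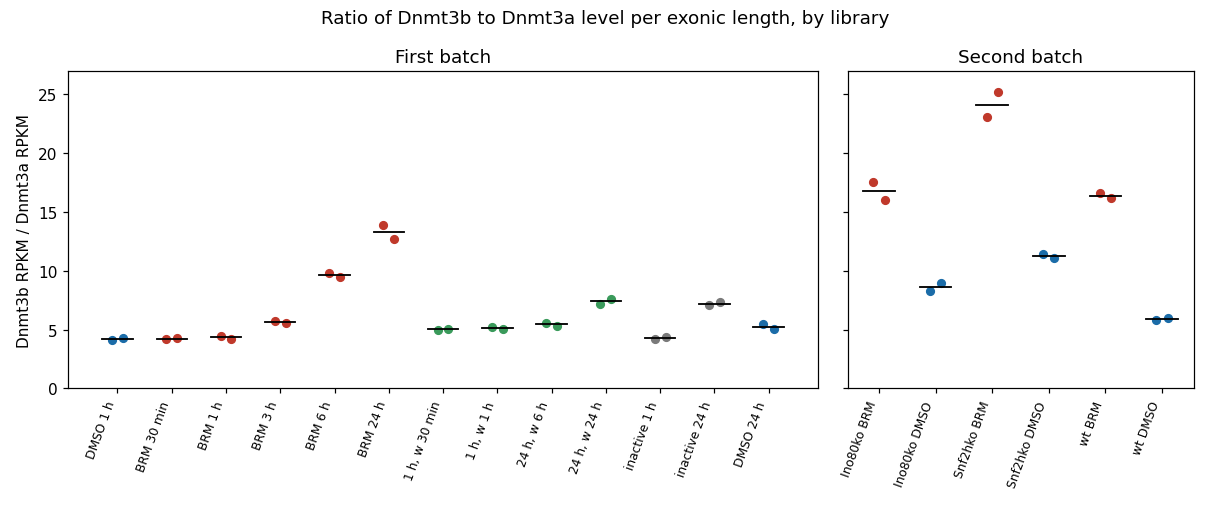
Ratio of Dnmt3b to Dnmt3a level per exonic length (RPKM, vertical axis from 0) in each library, 2 points and a line at their mean per group, by batch. Libraries with BRM014 for 24 h lie at 12.7 to 16.6 in wild type, above the DMSO 24 h libraries at 5.01 to 5.95, and Snf2hko cells with BRM014 reach 23.1 and 25.2.

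The level of Dnmt3b relative to Dnmt3a was higher in every library with 6 h or 24 h of BRM014 than in any wild-type DMSO library, and so it was with the inactive analog at 24 h (7.08 and 7.31) and in the 24 h washout (7.18 and 7.63). Per exonic length, Dnmt3b exceeded Dnmt3a 9.77-fold and 9.45-fold after 6 h of BRM014, and 13.9-fold, 12.7-fold, 16.6-fold and 16.2-fold after 24 h, against 5.45-fold, 5.01-fold, 5.78-fold and 5.95-fold in DMSO 24 h and 4.08-fold and 4.26-fold in DMSO 1 h. No test was made of the ratio, which describes these libraries. It divides counts over all annotated exons, and Dnmt3a has 16642 exonic bases against 5106 for Dnmt3b.

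Ordered by mean level, the first-batch groups of Dnmt3a mostly had libraries that did not overlap those of the next group. They ran upward through BRM014 6 h (124 ± 2.60 CPM, SD, n = 2), BRM014 24 h (149.985 ± 9.97), inactive analog 24 h (215 ± 2.27), BRM014 3 h (259 ± 8.94), the 24 h washout (268 ± 1.04), DMSO 24 h (291 ± 19.9), the washouts of 1 h (306 ± 6.94) and 30 min (327 ± 11.8), BRM014 1 h (346 ± 3.61), the 6 h washout (349 ± 1.14), DMSO 1 h (364 ± 0.453), inactive analog 1 h (365 ± 2.39) and BRM014 30 min (375 ± 0.697). Neighbours in this order had overlapping libraries in 3 of 12 cases: inactive analog 1 h and DMSO 1 h, the 6 h washout and BRM014 1 h, and the 1 h washout and DMSO 24 h. The other genes separated less. Overlapping neighbours numbered 7 of 12 for Tet2, 8 of 12 for Dnmt3b, 9 of 12 for Dnmt3l and for Uhrf1, and 12 of 12 for Tdg. No share over all genes was computed for these counts, so they describe these libraries only.

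The inactive analog at the same dose and times was set against DMSO and against BRM014. At 1 h no gene was called for the analog against DMSO (0 of 6, background 0.184%, with 1 of 6, Dnmt3l, at an unadjusted p under 0.05) or for BRM014 against the analog (0 of 6, background 0.16%, with 0 of 6 at an unadjusted p under 0.05), and DESeq2 called 0 of 6 in each. At 24 h, Dnmt3a had 216 and 213 CPM with the analog, against 277 and 305 CPM with DMSO. The groups did not overlap, and Dnmt3a fell by 0.44 ± 0.06 (adjusted p = 1.88e-06). Tet2 had 477 and 520.1 CPM with the analog, against 339.9 and 402 CPM with DMSO, and rose by 0.43 ± 0.07 (adjusted p = 0.000141), to the highest levels of the first batch. Dnmt3b, Dnmt3l, Uhrf1 and Tdg were not called for the analog at 24 h (0.03, -0.02, -0.11 and -0.18, adjusted p = 0.798, 0.872, 0.276 and 0.156). These 2 of 6 calls compare with 18.4% of all genes.

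BRM014 and the analog differed for 3 of 6 genes at 24 h (background 35.4%). Dnmt3a was lower with BRM014, at 143 and 157 CPM, than with the analog, by 0.52 ± 0.06 (adjusted p = 2.46e-08). Dnmt3b was higher with BRM014, at 610.3 and 613 CPM, against 470.4 and 478 CPM with the analog (0.37 ± 0.06, adjusted p = 5.07e-06). Tet2 was lower with BRM014, at 402 and 412 CPM, than with the analog, by 0.30 ± 0.07 (adjusted p = 0.00253). Dnmt3a thus fell with both compounds and further with BRM014, whereas Dnmt3b rose with BRM014 and differed between the compounds. Dnmt3l did not pass the test between the compounds, with a 95% interval of the difference of -0.15 to 0.11 (-0.02, adjusted p = 0.881). For Uhrf1 the interval was 0.0032 to 0.29 (0.14, adjusted p = 0.106) and for Tdg 0.03 to 0.39 (0.21, adjusted p = 0.0644). When only the 4 libraries compared were fitted, Tdg (0.21, adjusted p = 0.0234) and Uhrf1 (0.14, adjusted p = 0.0397) were called too. The 2 pairs of compound groups, at 1 h and 24 h, share the DMSO groups of their time, so the changes against DMSO are not independent of each other.

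**Figure D3:**
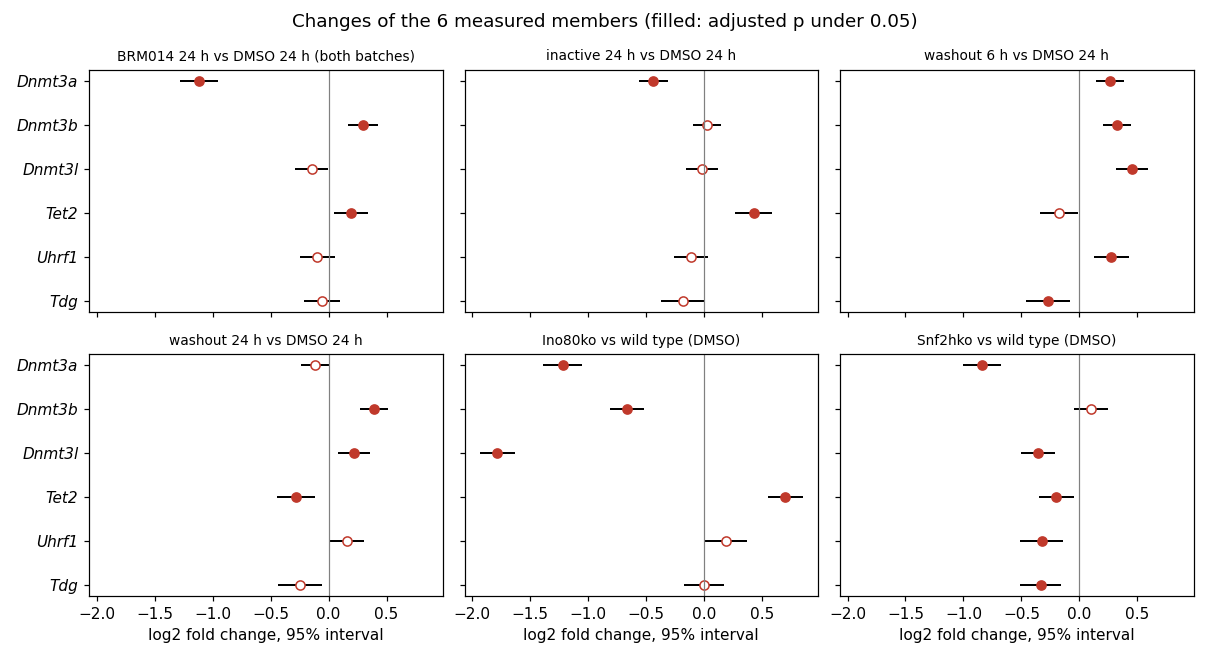
Log2 fold change (horizontal axis) of the 6 genes in 6 comparisons, the first-named group over the second, with 95% intervals as bars and filled points at an adjusted p under 0.05. Dnmt3a lies at -1.12 after 24 h of BRM014, -0.44 after the inactive analog, 0.26 after a 6 h washout, -1.22 in Ino80ko and -0.84 in Snf2hko cells, and Dnmt3l at -1.78 in Ino80ko cells.

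In the 6 h washout all 3 Dnmt3 genes stood above DMSO 24 h. In the 24 h washout Dnmt3b and Dnmt3l still did while Dnmt3a was not called. These washouts followed 24 h of BRM014, so they ended 6 h or 24 h later after the start than DMSO 24 h. No DMSO group matches those times or the wash, so time, wash and earlier BRM014 cannot be told apart against DMSO. In the 6 h washout, Dnmt3a had 348 and 349 CPM, against 143 and 157 CPM after 24 h of BRM014, a rise of 1.22 ± 0.06 (adjusted p = 2.84e-16). It also exceeded the 277 and 305 CPM of DMSO 24 h by 0.26 ± 0.06 (adjusted p = 0.000417), without overlap. Its mean in the 6 h washout was 349 CPM, below the 364 CPM of DMSO 1 h, so the excess rests on the vehicle chosen. Dnmt3l had 442 and 401 CPM in the 6 h washout, its highest levels in the first batch, and exceeded BRM014 24 h by 0.49 ± 0.06 (adjusted p = 2.47e-07) and DMSO 24 h by 0.46 ± 0.06 (adjusted p = 1.56e-06). Dnmt3b had 595 and 569 CPM, above the 463 and 469 CPM of DMSO 24 h by 0.32 ± 0.06 (adjusted p = 2.78e-05), and did not pass the test against BRM014 24 h (-0.07 ± 0.06, adjusted p = 0.335).

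Uhrf1 averaged 772 CPM in the 6 h washout and 779 CPM in DMSO 1 h, a comparison that was not tested. In the 6 h washout it had 779 and 765 CPM, above the 616 and 664 CPM of DMSO 24 h (0.28 ± 0.07, adjusted p = 0.00206). It also exceeded BRM014 24 h (0.24 ± 0.07, adjusted p = 0.0043). The second of these calls was lost without BRM014 24 h replicate 1 (0.17, adjusted p = 0.101). Tdg was lower in the 6 h washout, with 53.5 CPM in both libraries, than in BRM014 24 h, with 63.5 and 68.7 CPM (-0.30 ± 0.09, adjusted p = 0.0064), and than in DMSO 24 h, with 60.4 and 69.3 CPM (-0.27 ± 0.09, adjusted p = 0.0154). The Tdg call against BRM014 was lost without BRM014 24 h replicate 2 (-0.25, adjusted p = 0.0719). That against DMSO did not hold without DMSO 24 h replicate 2 (-0.18, adjusted p = 0.171) or without either washout replicate (replicate 1: -0.28, adjusted p = 0.0609; replicate 2: -0.28, adjusted p = 0.0636). Tet2 fell by 0.31 ± 0.08 against BRM014 24 h (adjusted p = 0.00107). It was not called against DMSO 24 h (-0.18 ± 0.08, adjusted p = 0.0587) and was called without DMSO 24 h replicate 1 (-0.30, adjusted p = 0.00413), with DESeq2's size factors (-0.19, adjusted p = 0.0448) or with no filter (-0.21, adjusted p = 0.00892). Calls numbered 5 of 6 against BRM014 24 h (background 48.7%) and 5 of 6 against DMSO 24 h (background 39.8%).

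In the 24 h washout Dnmt3a, with 267 and 268 CPM, no longer passed the test against DMSO 24 h (-0.12 ± 0.06, adjusted p = 0.161), though it was called without DMSO 24 h replicate 1 (-0.18, adjusted p = 0.0393). It fell by 0.38 ± 0.06 against the 6 h washout (adjusted p = 3.62e-06). Dnmt3l fell between the washouts by 0.24 ± 0.06 (adjusted p = 0.00358), to 356 and 359 CPM, a call lost without the 6 h washout replicate 1 (-0.15, adjusted p = 0.141). These were 2 of 6 genes between the washouts (background 40.3%). Dnmt3b stayed high: it had 588 and 628 CPM, above DMSO 24 h by 0.39 ± 0.06 (adjusted p = 8.98e-06). Its difference from BRM014 24 h had a 95% interval of -0.12 to 0.11 (adjusted p = 0.974).

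Dnmt3l remained above DMSO 24 h in the 24 h washout by 0.22 ± 0.06 (adjusted p = 0.0161), and Tet2, with 291 and 317 CPM, was below DMSO 24 h by 0.28 ± 0.08 (adjusted p = 0.00901). Both calls rest on single libraries. Dnmt3l was no longer called without DMSO 24 h replicate 1 (0.16, adjusted p = 0.121), washout replicate 1 (0.22, adjusted p = 0.0713) or washout replicate 2 (0.22, adjusted p = 0.0677). Tet2 was no longer called without DMSO 24 h replicate 2 (-0.15, adjusted p = 0.25) or washout replicate 1 (-0.22, adjusted p = 0.113). When only the 4 libraries compared were fitted, neither was called (adjusted p = 0.18 for Dnmt3l and 0.132 for Tet2). Tdg was not called (-0.25 ± 0.09, adjusted p = 0.055), and was called without DMSO 24 h replicate 1 (-0.34, adjusted p = 0.0154) or with no filter (-0.25, adjusted p = 0.0389). Against DMSO 24 h 3 of 6 genes were called (background 17.4%). Against BRM014 24 h 4 of 6 were called (background 50.4%): Dnmt3a (0.84 ± 0.06, adjusted p = 7.62e-13) and Dnmt3l (0.25 ± 0.06, adjusted p = 0.00143) rose, and Tet2 (-0.42 ± 0.08, adjusted p = 3.73e-05) and Tdg (-0.27 ± 0.09, adjusted p = 0.0118) fell. That Tdg call was lost without BRM014 24 h replicate 2 (-0.22, adjusted p = 0.111) or washout replicate 1 (-0.23, adjusted p = 0.0901). The comparisons with BRM014 24 h and with DMSO 24 h share the washout libraries.

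Washouts of 30 min and 1 h after a 1 h treatment gave no call among the 6 genes relative to BRM014 1 h in edgeR's test (0 of 6 each, backgrounds 5.9% and 3.98%). At an unadjusted p under 0.05 stood 3 of 6 in the 30 min washout (Dnmt3b, Tet2 and Uhrf1) and 1 of 6 in the 1 h washout (Dnmt3a). Without replicate 1 of the 30 min washout, Uhrf1 (-0.31, adjusted p = 0.00399), Tet2 (-0.28, adjusted p = 0.027) and Tdg (-0.31, adjusted p = 0.0394) were called. In the 1 h washout Dnmt3a had 311 and 301 CPM, against 349 and 344 CPM in BRM014 1 h (-0.18 ± 0.06, adjusted p = 0.0609), and DESeq2 called this difference (adjusted p = 0.0362) and none of the 6 in the 30 min washout.

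**Figure D4:**
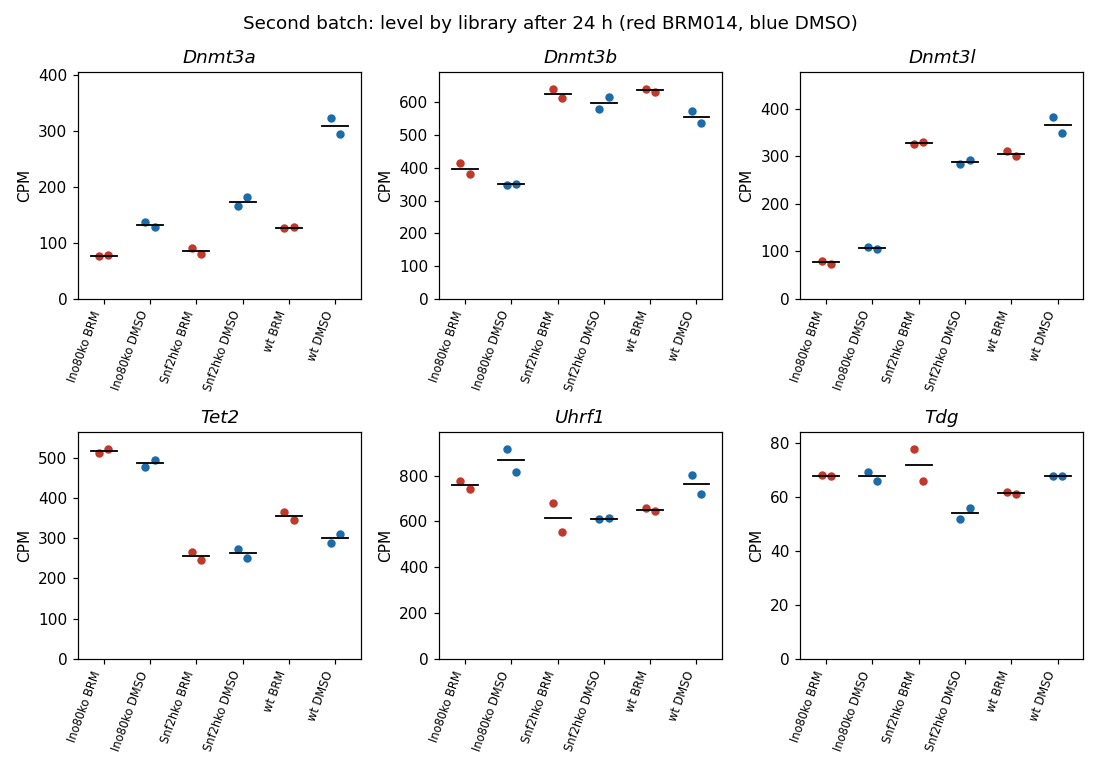
Level in CPM (vertical axis, from 0) of the 6 genes in each library of the second batch, all after 24 h, with 2 points and a line at their mean per group, in red for BRM014 and blue for DMSO. Dnmt3l is at 104 and 109 CPM in Ino80ko cells with DMSO and 349.6 and 383 CPM in wild-type cells with DMSO, and Tdg is lowest in Snf2hko cells with DMSO.

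In the line labelled Ino80ko, all 3 Dnmt3 genes were lower and Tet2 was higher than in wild type with DMSO. Dnmt3l had 109 and 104 CPM in Ino80ko cells, against 383 and 349.6 CPM in wild-type cells, and fell by 1.78 ± 0.07 (adjusted p = 4.94e-13). This change was larger in size than that of 93.9% of the genes tested. Dnmt3a had 137 and 128 CPM in Ino80ko cells, against 324 and 294 CPM in wild-type cells (-1.22 ± 0.08, adjusted p = 2.52e-10). Dnmt3b had 348 and 352 CPM in Ino80ko cells, against 574 and 537 CPM in wild-type cells (-0.66 ± 0.07, adjusted p = 1.49e-07). The falls thus ordered Dnmt3l, Dnmt3a and Dnmt3b, with intervals that did not overlap. Tet2 had 476 and 495 CPM in Ino80ko cells, against 288 and 311 CPM in wild-type cells, and rose by 0.70 ± 0.07 (adjusted p = 1.23e-07). Tdg was at 69.5 and 66.0 CPM in Ino80ko cells and 67.8 and 68.0 CPM in wild-type cells, with a 95% interval of the difference of -0.17 to 0.17. Uhrf1 averaged 867 CPM in Ino80ko cells and 763 CPM in wild-type cells (0.19 ± 0.08, adjusted p = 0.0813). It was called with no filter (0.18, adjusted p = 0.0333), without DMSO 24 h replicate 3 (0.27, adjusted p = 0.0392) or without Ino80ko DMSO 24 h replicate 2 (0.28, adjusted p = 0.0372). Calls numbered 4 of 6 (background 45%).

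In the line labelled Snf2hko, 5 of 6 genes were lower than in wild type with DMSO (background 56.5% in both directions and 27.7% lower), and Dnmt3b was not called. Dnmt3a had 165 and 182 CPM in Snf2hko cells, against 324 and 294 CPM in wild-type cells (-0.84 ± 0.07, adjusted p = 1.49e-08). Dnmt3l had 283 and 291 CPM in Snf2hko cells, against 383 and 349.6 CPM in wild-type cells (-0.36 ± 0.07, adjusted p = 0.000128). Neither pair of groups overlapped, nor did those of Tdg, with 52.1 and 56.1 CPM in Snf2hko cells and 67.8 and 68.0 CPM in wild-type cells (-0.33 ± 0.08, adjusted p = 0.00145). Uhrf1 had 609 and 614 CPM in Snf2hko cells, against 805 and 721 CPM in wild-type cells (-0.33 ± 0.09, adjusted p = 0.00298). Tet2 fell by 0.20 ± 0.07 (adjusted p = 0.0184), a call lost without Snf2hko DMSO 24 h replicate 2 (-0.13, adjusted p = 0.23) or DMSO 24 h replicate 4 (-0.15, adjusted p = 0.141). Dnmt3b had 579.6 and 617 CPM in Snf2hko cells, against 574 and 537 CPM in wild-type cells (0.10 ± 0.07, adjusted p = 0.204).

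Markers of primitive endoderm, the extraembryonic type that ES cultures can hold, differed between the genotypes, and so did those of other types. The 6 listed genes summed to 656 to 677 CPM in Snf2hko cells with DMSO, 66.1 to 71.6 CPM in Ino80ko cells with DMSO, and 138 to 144 CPM in wild-type cells with DMSO in the second batch, over a range of 61.6 to 1156 CPM in all libraries, with Pdgfra at 0. ES cell markers summed to 5609 to 5921 CPM in Snf2hko cells, 6898 to 7230 CPM in Ino80ko cells and 6259 to 6650 CPM in wild-type cells with DMSO, with Sox2 at 0. Markers of trophoblast (6 listed, Gata3 at 0) summed to 34.4 to 36.0 CPM in Snf2hko cells, 20.6 to 20.8 CPM in Ino80ko cells and 76.0 to 79.3 CPM in wild-type cells with DMSO. In the same order, neural markers summed to 87.4 to 91.2, 81.0 to 84.4 and 77.3 to 77.6 CPM. Mesoderm markers (5 listed) summed to 7.09 to 7.16, 3.32 to 3.45 and 4.36 to 4.74 CPM. Feeder fibroblast markers summed to 43.2 to 46.7, 16.2 to 16.4 and 18.8 to 21.0 CPM. Those of 2-cell-like cells (5 listed, Usp17lc and Tcstv1 at 0) summed to 6.41 to 6.82, 1.67 to 2.81 and 7.36 to 7.45 CPM. In wild-type cells of both batches, primitive endoderm markers summed to 194 to 271 CPM after 24 h of BRM014 and 138 to 253 CPM with DMSO, and ES cell markers to 7111 to 7298 CPM after BRM014 and 6259 to 6650 CPM with DMSO. There, mesoderm markers overlapped (4.15 to 5.94 CPM after BRM014, 4.36 to 4.74 CPM with DMSO). So did 2-cell-like markers (5.48 to 12.6 CPM after BRM014, 7.36 to 12.4 CPM with DMSO). The 3 other lists were lower after BRM014 without overlap. Trophoblast markers summed to 44.9 to 55.5 CPM after BRM014 and 64.0 to 79.3 CPM with DMSO, neural markers (5 listed, Neurod1 and Sox1 at 0) to 45.7 to 46.5 CPM after BRM014 and 60.4 to 77.6 CPM with DMSO, and feeder fibroblast markers (6 listed, Col1a2 at 0) to 7.42 to 9.27 CPM after BRM014 and 18.8 to 22.2 CPM with DMSO. Over all libraries the highest sums were 94.6 CPM for trophoblast, 144 CPM for neural, 48.1 CPM for mesoderm and 90.3 CPM for 2-cell-like markers. These, and the 1156 CPM of primitive endoderm markers, come from groups whose sums are not given here. Larger marker differences than those printed therefore exist in the series. The part of these marker lists in the changes of the 6 genes was not tested. In such bulk samples, fewer cells of a type and less RNA per cell cannot be told apart. Each line is compared with the same pair of wild-type DMSO libraries, so both genotype comparisons share them.

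BRM014 lowered Dnmt3a further in both lines. It had 76.8 and 77.4 CPM in Ino80ko cells with BRM014, against 137 and 128 CPM with DMSO (-0.78 ± 0.08, adjusted p = 7.82e-08), and 90.3 and 79.5 CPM in Snf2hko cells with BRM014, against 165 and 182 CPM with DMSO (-1.03 ± 0.08, adjusted p = 1.23e-09). These were its lowest levels in the series. The fall was smaller in Ino80ko than in wild type, where it was 1.29, by 0.51 ± 0.11 (adjusted p = 0.00469). In Snf2hko cells the difference from wild type was not called (0.26 ± 0.11, adjusted p = 0.0662), but was without DMSO 24 h replicate 4 (0.33, adjusted p = 0.03) or Snf2hko BRM014 24 h replicate 2 (0.33, adjusted p = 0.0212). Dnmt3a was the 1 gene of 6 with a called difference between Ino80ko and wild type in the effect of BRM014 (background 9.03%).

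Dnmt3l responded to BRM014 in opposite directions in the lines. It had 79.9 and 73.2 CPM in Ino80ko cells with BRM014, against 109 and 104 CPM with DMSO, and fell by 0.47 ± 0.07 (adjusted p = 1.19e-05). In Snf2hko cells it had 326 and 331 CPM with BRM014, against 283 and 291 CPM with DMSO, and rose by 0.20 ± 0.07 (adjusted p = 0.0137), a call lost without Snf2hko DMSO 24 h replicate 1 (0.18, adjusted p = 0.102). The Snf2hko effect differed from that in wild type by 0.47 ± 0.09 (adjusted p = 0.000815). Tdg rose with BRM014 in Snf2hko cells, to 77.9 and 66.1 CPM, against 52.1 and 56.1 CPM with DMSO (0.42 ± 0.08, adjusted p = 0.000185). Its effect there differed from that in wild type by 0.56 ± 0.11 (adjusted p = 0.000881). Tet2 was at 267 and 245 CPM in Snf2hko cells with BRM014 and 273 and 250.4 CPM with DMSO, and its effect was below that in wild type by 0.28 ± 0.10 (adjusted p = 0.0359). That Tet2 difference was lost when only the 8 libraries compared were fitted (adjusted p = 0.0526), and without BRM014 24 h replicate 3 (-0.25, adjusted p = 0.114), DMSO 24 h replicate 3 (-0.24, adjusted p = 0.0923), Snf2hko BRM014 24 h replicate 2 (-0.24, adjusted p = 0.0777) or Snf2hko DMSO 24 h replicate 1 (-0.23, adjusted p = 0.141). Dnmt3l, Tdg and Tet2 make 3 of 6 genes with a called difference between Snf2hko and wild type (background 32.6%). Uhrf1 joined them without Snf2hko BRM014 24 h replicate 2 (0.37, adjusted p = 0.0104).

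Dnmt3b had 415 and 379.8 CPM in Ino80ko cells with BRM014, against 348 and 352 CPM with DMSO, and rose by 0.18 ± 0.07 (adjusted p = 0.0315). The call was lost without Ino80ko BRM014 24 h replicate 1 (0.12, adjusted p = 0.265) or without either Ino80ko DMSO replicate (replicate 1: 0.19, adjusted p = 0.107; replicate 2: 0.19, adjusted p = 0.0889). In Snf2hko cells it had 639.7 and 614 CPM with BRM014 and 579.6 and 617 CPM with DMSO (0.07 ± 0.07, adjusted p = 0.353). Uhrf1 averaged 759 CPM with BRM014 and 867 CPM with DMSO in Ino80ko cells (-0.19 ± 0.08, adjusted p = 0.0742). It was called there with the replicate number as a block (-0.19, adjusted p = 0.035), when only the 4 libraries compared were fitted (-0.20, adjusted p = 0.0182), with no filter (-0.19, adjusted p = 0.0255) or without Ino80ko DMSO 24 h replicate 2 (-0.27, adjusted p = 0.0432). Calls for BRM014 numbered 3 of 6 in Ino80ko cells (background 44.5%) and 3 of 6 in Snf2hko cells (background 56.9%). The ratio of Dnmt3b to Dnmt3a per exonic length was 23.1 and 25.2 in Snf2hko cells with BRM014 and 11.4 and 11.1 with DMSO, and 17.6 and 16.0 in Ino80ko cells with BRM014 and 8.28 and 8.99 with DMSO.

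**Figure D5:**
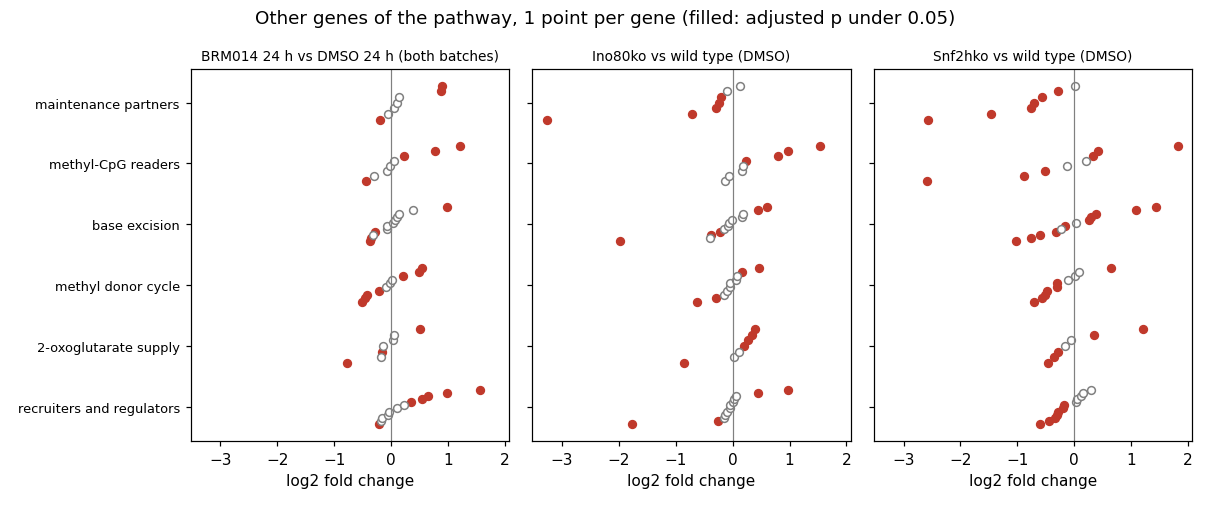
Log2 fold change (horizontal axis) of the other genes of the pathway, 1 point per gene in 6 lists, for 24 h of BRM014 over DMSO and for each line over wild type with DMSO, filled at an adjusted p under 0.05. Dppa3 lies at -3.27 in Ino80ko and -2.56 in Snf2hko cells, and Mbd1 at -2.58 in Snf2hko cells.

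Genes around these enzymes were followed in 6 lists of 66 genes, of which 56 were tested and 10 were listed at 0. Among partners of maintenance methylation (7 tested), 2 rose and 1 fell after 24 h of BRM014, with a median log2 change of 0.11, against 0.00325 over all genes, of which 24.8% were called higher and 24.8% lower. Uhrf2, the paralog of Uhrf1, rose by 0.88 ± 0.06 (adjusted p = 5.39e-09) and Dppa3, which displaces Uhrf1 from chromatin and protects oocyte and early embryonic DNA from methylation, rose by 0.90 ± 0.14 (adjusted p = 5.02e-05). In Ino80ko cells 0 rose and 5 of 7 fell (median -0.24), where 22.1% of all genes were called higher and 22.9% lower. In Snf2hko cells 0 rose and 6 of 7 fell (median -0.71), where 28.9% of all genes were called higher and 27.7% lower. Dppa3 had 0.914 and 0.855 CPM in Ino80ko cells, 1.63 and 1.28 CPM in Snf2hko cells and 9.21 and 7.94 CPM in wild-type cells with DMSO, and fell by 3.27 ± 0.18 in Ino80ko (adjusted p = 7.86e-11) and fell by 2.56 ± 0.17 in Snf2hko (adjusted p = 2.01e-10). In Snf2hko cells Cdca7l (-1.46 ± 0.08), the DNA ligase Lig1 (-0.76 ± 0.08) and Cdca7, the activator of the remodeller Hells (-0.71 ± 0.06), fell as well (adjusted p = 1.75e-11, 3.25e-07 and 1.41e-08).

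Among methyl-CpG readers (8 tested), 3 rose and 1 fell after 24 h of BRM014 (median 0.02). Zbtb4, a zinc finger protein that binds methylated DNA, rose by 1.21 ± 0.16 after BRM014 (adjusted p = 6.46e-06), by 1.53 ± 0.16 in Ino80ko (adjusted p = 3.5e-07) and by 1.82 ± 0.16 in Snf2hko (adjusted p = 1.11e-08). Zbtb38 fell by 0.43 ± 0.08 after 24 h of BRM014 (adjusted p = 0.000462). In Ino80ko cells 4 rose and 0 fell (median 0.21), and in Snf2hko cells 3 rose and 3 fell (median 0.04). Over all genes the calls were 24.8% higher and 24.8% lower after BRM014, 22.1% and 22.9% in Ino80ko, and 28.9% and 27.7% in Snf2hko. Mbd1 was the largest fall of the list, with 10.4 and 10.6 CPM in Snf2hko cells and 64.3 and 60.2 CPM in wild-type cells with DMSO (-2.58 ± 0.08, adjusted p = 1.49e-14).

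Among genes of base excision repair (12 tested), which acts after Tdg, 1 rose and 3 fell after 24 h of BRM014 (median -0.02). Gadd45a, a stress protein linked to active demethylation, rose by 0.99 ± 0.08 (adjusted p = 1.73e-08), and Apex1, the endonuclease that acts on the abasic site, fell by 0.37 ± 0.06 (adjusted p = 6.45e-05). In Ino80ko cells 2 rose and 3 fell (median -0.07), with Gadd45g down by 1.98 ± 0.19 (adjusted p = 1.28e-07). In Snf2hko cells 5 rose and 5 fell (median -0.06), with Gadd45g up by 1.43 ± 0.15 (adjusted p = 1.16e-07), Gadd45b up by 1.09 ± 0.10 (adjusted p = 3.47e-08) and Neil3, a glycosylase, down by 1.02 ± 0.18 (adjusted p = 7.74e-05). The shares of all genes called higher and lower were 24.8% and 24.8% after BRM014, 22.1% and 22.9% in Ino80ko, and 28.9% and 27.7% in Snf2hko.

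A pair of lists covers small molecules that the enzymes use. In the methyl donor cycle (10 tested), 3 rose and 4 fell after 24 h of BRM014 (median -0.05), 2 rose and 2 fell in Ino80ko (median -0.05), and 1 rose and 6 fell in Snf2hko (median -0.31). Mat2a and Mat2b, which form S-adenosylmethionine synthetase, fell after 24 h of BRM014 by 0.43 ± 0.07 and 0.47 ± 0.06 (adjusted p = 0.000121 and 5.46e-06). Of 7 tested genes that supply or clear 2-oxoglutarate and its reduced form, 1 rose and 2 fell after BRM014 (median -0.14), 4 rose and 1 fell in Ino80ko (median 0.20), and 2 rose and 3 fell in Snf2hko (median -0.16). For both lists, 24.8% of all genes were called higher and 24.8% lower after BRM014, 22.1% and 22.9% in Ino80ko, and 28.9% and 27.7% in Snf2hko. Tet enzymes need 2-oxoglutarate, and Idh1, which makes it in the cytosol, fell by 0.78 ± 0.07 after BRM014 (adjusted p = 5.72e-08) and was higher in Snf2hko than in wild type by 1.21 ± 0.06 (adjusted p = 1.24e-11).

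Among recruiters and regulators of the enzymes (12 tested), 5 rose and 1 fell after 24 h of BRM014 (median 0.17), where 24.8% of all genes were called in each direction. After 6 h 8 rose and 2 fell (median 0.23), where 24.9% of all genes were called higher and 23.5% lower. The other lists at 6 h gave 1 rise and 3 falls for maintenance partners, and 1 and 1 for methyl-CpG readers. Base excision gave 3 and 1, the methyl donor cycle 4 and 3, and the 2-oxoglutarate list 0 and 2. Over all 6 lists, 17 of 56 tested genes rose and 12 fell at 6 h. Dppa2 and Dppa4, which bind together and keep CpG-rich promoters unmethylated, rose by 0.98 ± 0.06 and 0.54 ± 0.06 at 24 h (adjusted p = 9.38e-10 and 1.41e-06). Prdm14, which represses the Dnmt3 genes in ES cells, fell by 0.90 ± 0.07 at 6 h (adjusted p = 3.63e-11). In Ino80ko cells 2 rose and 2 fell (median -0.04, with 22.1% of all genes higher and 22.9% lower), with Zfp57, which guards imprinted methylation, up by 0.98 ± 0.09 (adjusted p = 4.44e-08). In Snf2hko cells 0 rose and 7 fell (median -0.19, with 28.9% of all genes higher and 27.7% lower), with Dppa2 down by 0.60 ± 0.06 (adjusted p = 2.01e-07). The inactive analog at 24 h gave 3 rises and no fall in this list and likewise 3 rises and no fall among the maintenance partners. Methyl-CpG readers gave 0 rises and 1 fall with the analog, and base excision 2 and 2. The methyl donor cycle gave 3 and 1, and the 2-oxoglutarate list 0 and 1. Over all 6 lists, 11 of 56 tested genes rose and 5 fell with the analog. Of all genes, 8.91% were called higher and 9.52% lower. Uhrf2 (0.47 ± 0.07, adjusted p = 7.23e-06), Dppa2 (0.43 ± 0.06, adjusted p = 4.15e-06) and Idh1 (-0.48 ± 0.05, adjusted p = 2.31e-07) moved with the analog in the direction they took with BRM014. Those comparisons share DMSO libraries of the first batch.

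The genes whose pattern over the 19 combinations of group and batch was most like that of each enzyme were ranked among 8098 genes, by the Pearson correlation of mean log2 CPM centred within a batch. For Dnmt3a these were Efs (r = 0.927), Pecam1 (0.922) and Tnfrsf1b (0.921). For Dnmt3b they were Car12 (0.928), Amhr2 (0.879) and Sept8 (0.867), and for Dnmt3l Pla2g1b (0.924), Serinc5 (0.923) and Galnt6 (0.903). Afdn (0.922), Slc4a7 (0.896) and Slc7a5 (0.877) were nearest to Tet2, Cdca5 (0.888), Gatad2a (0.883) and Ptprn (0.88) to Uhrf1, and Tbc1d15 (0.871), Med15 (0.858) and Eif5b (0.855) to Tdg. Among the 6 enzymes themselves, Dnmt3b and Dnmt3l were most alike (0.809), and Dnmt3a and Dnmt3l less so (0.507). Dnmt3l and Tet2 had the most negative value (-0.624) over the 19 combinations. They did not run opposite throughout, as both had their lowest first-batch levels after 6 h of BRM014. In Ino80ko cells with DMSO, Dnmt3l was lower and Tet2 higher than in wild type. Groups within a batch share an experimental batch and its centring, and these values describe the 19 combinations only.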

How the data were processed

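RNA was measured in 38 libraries. Per the submitters' processing notes, reads were handled with bcl2fastq 2.17 and STAR on GRCm38 (mm10); for the counting program, annotation and strand setting, the sources used here give nothing. The authors deposited whole-number counts per gene, with exonic width, in 1 table, and its values were used as deposited. Groups come from the sample labels. Counts were scaled by TMM, genes were filtered with edgeR's filterByExpr (minimum count 10, minimum total 15), and changes were tested with edgeR 4.0.16 (quasi-likelihood, robust; limma 3.58.1, R 4.3.3) with Benjamini-Hochberg adjustment over all genes tested and a threshold of 0.05. The 26 first-batch libraries were fitted together (12517 genes), as were the 12 of the second batch (13130 genes), and the 8 wild-type 24 h libraries of both batches with a batch term (11787 genes). In all 28 comparisons were made. The 6 genes' smallest counts carry counting errors of 0.895% to 3.09%, and precision beyond that is set by the 2 libraries per group. DESeq2 1.42.0, other scalings, filters, vehicles and single libraries left out were tried as alternatives. The tests were also run on simulated data, with libraries drawn independently and 1 spread for all genes. That simulation held no batch difference and no deviation shared between libraries, so it does not cover these features of the data.

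The genes and lists were chosen with earlier results of these data known. Beside the 8 genes and Dnmt1, the text names at most 4 called genes per pathway list and comparison, those with the smallest adjusted p, and for each gene the 3 most alike in pattern, which were sought among named genes averaging at least 2 log2 CPM. RPKM divides the scaled CPM by deposited exonic width. Same-numbered replicates did not deviate together in a constant way. Of 78 pairs of first-batch groups 25 correlated above 0.1 and 29 below -0.1 (range -0.454 to 0.584). Libraries of some groups thus did deviate together, with numbers matched in some pairs and crossed in others. The reported fits carry no replicate block and treat libraries as independent, which these correlations do not bear out. No 2 replicate libraries of the 19 pairs were identical. Promoter sequences are from RefSeq (GRCm38.p6), where all 8 genes matched.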

Additional observations from a re-analysis of the deposited data

Results flagged for a closer look

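Of 24 tests of whether the effect of BRM014 differed between times, lines or batches in 1 of the 6 genes, 6 passed the threshold in edgeR's test. The effect on Dnmt3a was lower at 24 h than at 1 h by 0.88 on the log2 scale (-0.88, adjusted p = 8.15e-10), and the effect on Dnmt3b was higher at 24 h by 0.42 (adjusted p = 0.000129). The effect on Dnmt3a was 0.51 higher in Ino80ko than in wild-type cells (adjusted p = 0.00469), where the fall was smaller. In Snf2hko against wild-type cells, the effect of BRM014 was higher by 0.47 for Dnmt3l (adjusted p = 0.000815) and by 0.56 for Tdg (adjusted p = 0.000881), and for Tet2 it differed by -0.28 (adjusted p = 0.0359). The Tet2 difference was lost without any 1 of 4 libraries named in the report. In 12 sets of 4 libraries, 1 per gene for BRM014 24 h and DMSO 24 h over both batches, 0 had a library far from the others. Chance gives about 1 in 20 only where the 4 libraries share a level. These sets pool both batches, and a difference between batches can hide such a library, so the result does not exclude one. Groups in a single batch were too small for this check.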

How the results depend on the processing

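Of 1692 values of the 6 genes under alternatives, 1619 stayed on the same side of the threshold, 42 lost their call and 31 gained one. The sign changed in 84 values, of which 0 were called under either setting, and the largest of these was 0.132 in size (log2). Apart from fits with 1 library left out, the counts of called genes moved beyond 1.5 times in 5 cases. Some counts moved that far with 1 library left out too, as the ranges below show. Against DMSO 1 h alone, 1 gene was called at 3 h of BRM014 (2 with both vehicles). Fitting only the libraries compared gave 5 for BRM014 against the analog at 24 h (3 in the larger fit), 1 for DMSO 24 h against 1 h (2) and 1 for the 24 h washout against DMSO (3). DESeq2 called 1 in the 1 h washout, where edgeR called 0. Leaving out 1 library at a time gave 2 to 4 genes for BRM014 24 h over both batches, 2 to 3 in the first and 2 to 4 in the second, 1 to 2 at 3 h, 4 to 5 at 6 h, 3 to 4 between 6 h and 24 h, and 2 to 3 for DMSO. It gave 0 to 3 in the 30 min washout, 4 to 5 and 3 to 4 in the 6 h and 24 h washouts against BRM014, 4 to 6 and 1 to 4 against DMSO, and 1 to 2 between them. It gave 4 to 5 for each line against wild type, 2 to 3 for BRM014 in each line, 2 to 4 for the Snf2hko difference and 0 to 1 for the batch difference. The causes were not tested.

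Over all genes, the count of calls ranged over 0 to 43 at 30 min (0 as reported), 17 to 154 at 1 h (75), 2 to 80 for the analog at 1 h (23), 2 to 52 for BRM014 against the analog at 1 h (20), 112 to 1336 in the 30 min washout (738) and 118 to 810 for the batch difference (408). It reached as low as 2513 at 3 h (3902), 895 for DMSO 24 h against 1 h (2320), 996 for the analog at 24 h (2306), 198 in the 1 h washout (498), 655 in the 24 h washout against DMSO (2181) and 678 for the Ino80ko difference (1186).

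The replicate number as a block called 4 genes for BRM014 in Ino80ko (3 without), adding Uhrf1, and changed no other call count of the 6 genes. No paired analysis was possible for the line comparisons because wild-type replicates are numbered 3 and 4 and those of the lines 1 and 2. Where same-numbered libraries correlated below -0.1, crossing the numbers, chosen after seeing the data, left the counts of the 6 genes at 0, 0, 3, 0 and 4 in 5 comparisons, and gave 24 genes in all for the analog at 1 h (23 as reported), 22 for BRM014 against it (20), 4526 at 24 h (4436), 924 in the 30 min washout (738) and 6262 in the 24 h washout against BRM014 (6305). With 2 libraries a group, the changes whose calls came or went with 1 library were 0.12 to 0.38 in size on the log2 scale.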
